A study of Rattus norvegicus with 12 samples.

Results

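MiR-192, miR-194 and miR-215 are microRNAs of intestinal-type epithelium. They were followed here in rat gastric mucosa as every miR-192, miR-194 and miR-215 entry of the deposited count tables, which gave 5 mature miRNAs of 649: rno-miR-192-5p, rno-miR-192-3p, rno-miR-194-5p, rno-miR-194-3p and rno-miR-215, named without the rno- prefix from here on. Membership was set by name, and these families were picked for description with earlier results of these data known. Small RNA was sequenced from 3 groups of 4 libraries. The XLHZ group received the alkylating carcinogen N-methyl-N'-nitro-N-nitrosoguanidine, MNNG, for 24 weeks, and the Xianglianhuazhuo herbal formula for 60 days. The model group, with chronic atrophic gastritis, had the same 24 weeks of MNNG without the formula. For both exposed groups the labels describe MNNG at 180 µg/ml in the drinking water, 2% sodium salicylate by gavage, and 2 days of feeding alternating with 1 day of fasting. The normal group was untreated. The labels give no strain, sex or age, and they do not say whether each library is a rat of its own. The p-values below therefore measure the spread between libraries, which may be technical.

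A microRNA guides a silencing complex to messenger RNAs that pair with its seed, bases 2 to 8 from its 5′ end. In mammals miR-192, miR-194 and miR-215 are made from a pair of small gene clusters that each encode a copy of miR-194. They are abundant in intestinal, liver and kidney epithelium, where HNF1-type transcription factors are known to drive them, and p53 can induce them in human cells. In the human stomach and oesophagus they are known from intestinal metaplasia, the replacement of the local lining by an intestinal one.

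The mature sequences are shown because they separate what the counts can and cannot tell apart. They come from RefSeq on the rat assembly GRCr8, in which all 5 members were found, and are written 5′ to 3′ with the seed in capitals.
miR-192-5p: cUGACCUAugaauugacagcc
miR-215: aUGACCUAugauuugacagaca
miR-192-3p: cUGCCAGUuccauaggucacag
miR-194-5p: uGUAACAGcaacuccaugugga
miR-194-3p: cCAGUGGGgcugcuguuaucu
MiR-192-5p and miR-215 carry the same seed. They matched at 18 of 21 aligned positions, with the substitutions C1A, A12U and C20A (miR-192-5p base, position from its 5′ end, miR-215 base), and miR-215 had 1 further base at its 3′ end. Among the 588 miRNAs of the tables that had a mature sequence, the seed UGACCUA was found only in these 2. The seeds of miR-192-3p, miR-194-5p and miR-194-3p were each found in 1 miRNA, the member itself.

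The hairpins show the loci behind the counts, with the mature arms that the tables count in capitals.
Mir194-2, chr1:212994024-212994108, plus strand: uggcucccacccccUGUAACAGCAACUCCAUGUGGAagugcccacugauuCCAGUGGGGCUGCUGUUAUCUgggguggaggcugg
Mir192, chr1:212994209-212994318, plus strand: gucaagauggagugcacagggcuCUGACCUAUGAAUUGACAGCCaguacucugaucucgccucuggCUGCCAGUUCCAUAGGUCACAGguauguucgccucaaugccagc
Mir194-1, chr13:99382716-99382798, plus strand: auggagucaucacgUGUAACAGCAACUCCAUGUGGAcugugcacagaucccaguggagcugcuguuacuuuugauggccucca
Mir215, chr13:99382990-99383086, plus strand: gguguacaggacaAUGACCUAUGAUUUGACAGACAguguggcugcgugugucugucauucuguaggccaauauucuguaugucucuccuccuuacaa
On chromosome 1, 100 bases separated Mir194-2 from Mir192, between the protein-coding genes Atg2a and Ehd1 and inside neither. On chromosome 13, 191 bases separated Mir194-1 from Mir215, within the bounds of Iars2. MiR-194-5p is the same at both loci, so its counts cannot be assigned to one of them. By sequence, miR-192-5p, miR-192-3p and miR-194-3p report on the chromosome 1 cluster and miR-215 on the chromosome 13 cluster. Whether some counts of the far more abundant miR-192-5p were assigned to the similar miR-215 was not tested. The deposited files name no genome build, and the coordinates are those of GRCr8 only.

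Total counts ran from 9095260 to 11556061 a library. Levels are given as CPM, the count of a miRNA relative to its library's total in parts per 1000000, corrected by TMM factors (an adjustment of library size computed here over all 12 libraries). Mucosal identity was checked on lists of marker miRNAs. MiR-375-3p, abundant in gastric endocrine and gland epithelium, ran from 5100 to 19685 CPM over the 12 libraries, and the 9 arms of the epithelial miR-200 family summed to 55363 to 88644 CPM. The libraries also held muscle: smooth muscle miR-143-3p took 9.39% to 29.2% of a library's counts, with the largest shares in model libraries 2 (29.2%) and 3 (25.1%).

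MiR-194-5p and miR-192-5p, the guide strands of their hairpins, made up nearly all of the members' signal. Of the counts of the 5 members over all libraries, miR-194-5p had 51.25%, miR-192-5p 48.18%, miR-192-3p 0.4924%, miR-215 0.07504% and miR-194-3p 0.003943%. The mature forms are of nearly equal length, so these shares compare like with like in length, although not in how readily each is captured. MiR-192-5p ranked between 21 and 50 among the miRNAs of a library and miR-194-5p between 23 and 46, while miR-215 ranked between 220 and 339. MiR-194-5p was above miR-192-5p in 11 of 12 libraries, the exception being model library 3. MiR-192-3p was above miR-215, and miR-215 above miR-194-3p, in 12 of 12.

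Together the members took 1.35%, 1.22%, 1.51% and 1.41% of the counts of XLHZ libraries 1 to 4. The shares were 1.25%, 0.569%, 1.88% and 1.55% in model libraries 1 to 4, and 0.907%, 1.14%, 1.63% and 1.29% in normal libraries 1 to 4. The group means were 1.37% ± 0.121 in XLHZ, 1.31% ± 0.558 in model and 1.24% ± 0.303 in normal mucosa (SD, n = 4 each). The means lay closer together than the libraries of any group, and the lowest and the highest of the 12 shares were both model libraries. The 95% Wilson half-width of a share was at most 0.0079 percentage points, which covers counting error only.

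MiR-192-5p had 5279, 5998, 7531 and 5915 CPM in XLHZ libraries 1 to 4, against 6130, 3253, 11666 and 6770 CPM in model libraries 1 to 4 and 4507, 5542, 7435 and 5550 CPM in normal libraries 1 to 4. The 3 groups overlapped, and model libraries 2 and 3 lay outside the range of the other 10, at the low and the high end. The means were 6181 ± 956 CPM in XLHZ, 6955 ± 3494 CPM in model and 5758 ± 1221 CPM in normal mucosa (SD, n = 4 each).

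MiR-194-5p, which both clusters encode, had 6339, 6638, 7912 and 6664 CPM in XLHZ libraries 1 to 4. It had 6458, 3672, 10599 and 7190 CPM in model libraries and 4672, 6074, 7982 and 5971 CPM in normal libraries 1 to 4. The same 2 model libraries were at the ends, and the groups overlapped. The means were 6888 ± 698 CPM in XLHZ, 6980 ± 2849 CPM in model and 6175 ± 1364 CPM in normal mucosa (SD, n = 4 each).

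MiR-192-3p, the other arm of the Mir192 hairpin, had 51.1, 54.8, 64.5 and 62.6 CPM in XLHZ libraries 1 to 4, against 61.5, 35.6, 128 and 54.5 CPM in model libraries and 46.7, 60.5, 89.8 and 62.9 CPM in normal libraries. It averaged 58.2 ± 6.37 CPM in XLHZ, 69.9 ± 40.3 CPM in model and 65.0 ± 18.1 CPM in normal mucosa (SD, n = 4 each). Again the groups overlapped, with model libraries 3 and 2 highest and lowest.

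MiR-215, the member made only on chromosome 13, had 129, 98, 87 and 146 counts in XLHZ libraries 1 to 4, or 12.3, 9.42, 8.44 and 12 CPM. It had 85, 26, 291 and 87 counts in model libraries, or 8.65, 2.91, 30.4 and 7.36 CPM. In normal libraries it had 72, 60, 80 and 95 counts, or 7.32, 5.34, 7.19 and 7.68 CPM. The 4 XLHZ libraries lay above the 4 normal libraries on this scale, by a small margin between XLHZ library 3 and normal library 4. The model libraries spanned the range of both other groups and beyond: exact Poisson 95% intervals were 259 to 326 counts in model library 3 and 17.0 to 38.1 counts in model library 2. Group means were 10.5 ± 1.92 CPM in XLHZ, 12.3 ± 12.3 CPM in model and 6.88 ± 1.05 CPM in normal mucosa (SD, n = 4 each).

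MiR-194-3p, the minor arm of Mir194-2, was near the limit of detection. It had 9, 6, 2 and 9 counts in XLHZ libraries, 4, 0, 12 and 1 in model libraries, and 6, 5, 7 and 5 in normal libraries 1 to 4. The sums were 26, 17 and 23 counts in XLHZ, model and normal mucosa. The 0 in model library 2 allows up to 3 counts, or 0.335 CPM on the TMM scale. Over the 12 libraries together miR-194-5p, which a second hairpin also makes, had 12997 counts for each count of miR-194-3p.

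**Figure D1:**
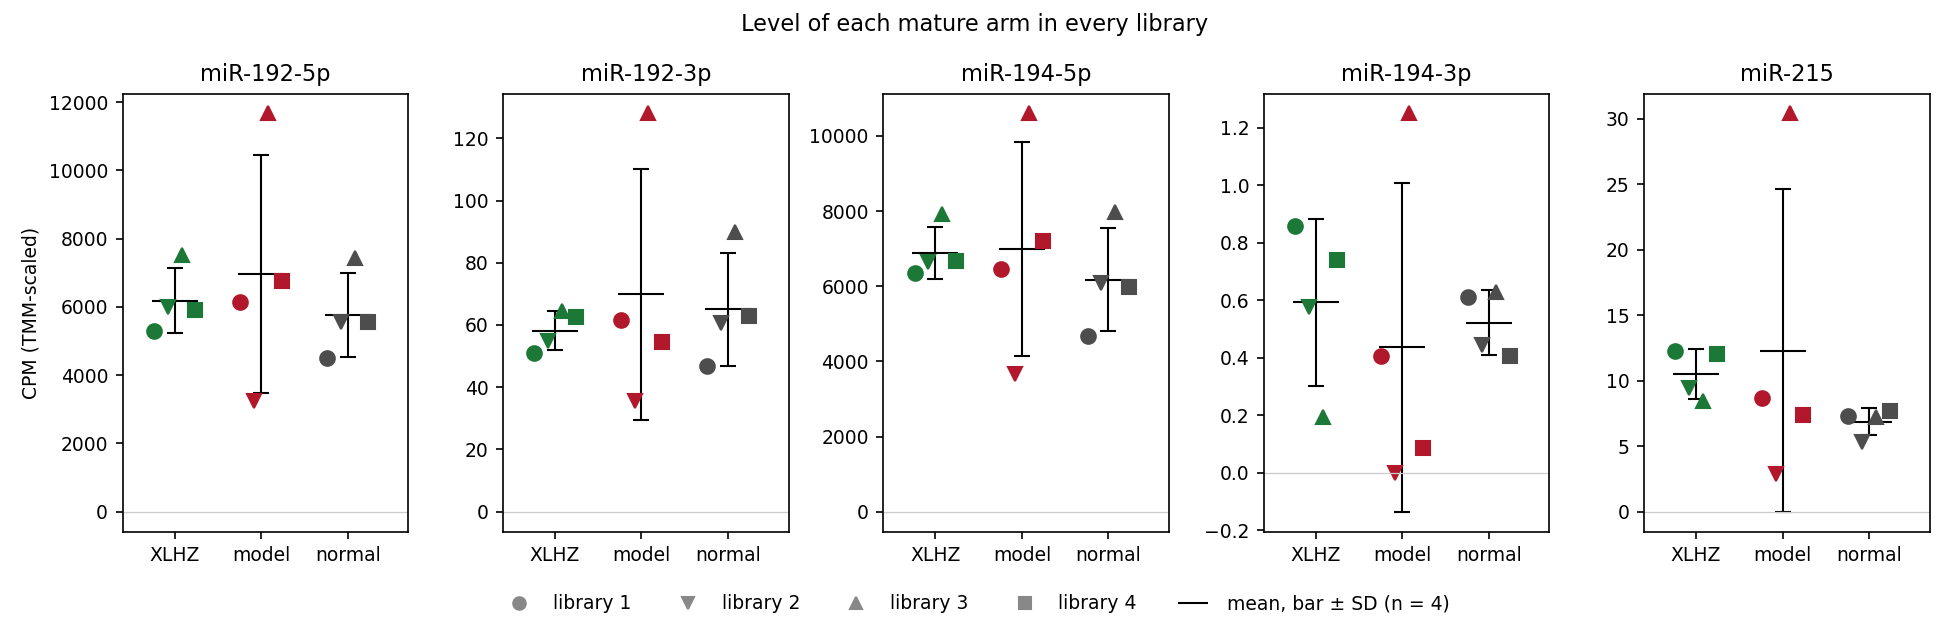
Level of each member (CPM scaled by TMM, linear axes that include 0, 1 panel a miRNA) in the 4 XLHZ, 4 model and 4 normal libraries, with a symbol shape for each library number and bars for group mean and SD (for miR-194-3p in model libraries the SD bar runs below 0). Model library 3 is the highest point and model library 2 the lowest in every panel, as for miR-192-5p at 11666 and 3253 CPM.

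All 5 members were highest of the 12 libraries in model library 3 and lowest in model library 2. The ratio of the highest to the lowest model library was 3.59 for miR-192-5p, 3.59 for miR-192-3p, 2.89 for miR-194-5p and 10.5 for miR-215. In XLHZ the same ratios ran from 1.25 for miR-194-5p to 1.46 for miR-215, and in normal mucosa from 1.44 for miR-215 to 1.93 for miR-192-3p. The model group as a whole was more spread: the median SD of log2 CPM over 417 miRNAs was 0.255 in XLHZ, 0.426 in model and 0.269 in normal libraries. Of these 417, 88.7% had a smaller SD in model libraries than miR-192-5p (0.755), 89.2% a smaller one than miR-192-3p (0.762) and 78.9% a smaller one than miR-194-5p (0.632). MiR-215, at 1.31, was exceeded by 10 of the 417. MiR-194-3p is not among the 417, which passed the count filter of the test described next over all 12 libraries.

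**Figure D2:**
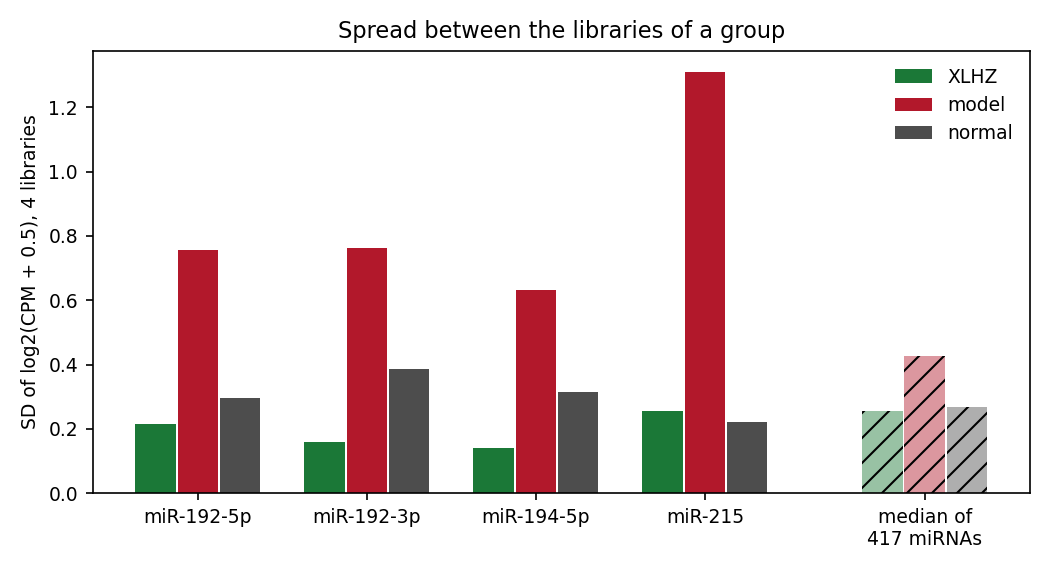
SD among the 4 libraries of each group (bars for XLHZ, model and normal, left to right) of log2 CPM with 0.5 added, for 4 members and, hatched, as the median of 417 miRNAs. The model bar is the tallest for each member, with miR-215 at 1.31 against a median of 0.426.

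The comparison of model with normal mucosa asks which miRNAs the gastritis regime altered. No member passed the test. Each comparison was tested with edgeR's quasi-likelihood test on the counts of its own 8 libraries, with Benjamini-Hochberg adjustment over all miRNAs past a minimum count of 10 and a threshold of 0.05 on the adjusted p. Of 403 miRNAs tested, 1 passed (0.248%), miR-20a-3p, and 4 of the 5 members were tested, of which 0 passed. MiR-194-3p had too few counts to be tested. At an unadjusted p under 0.05 the fit called 29 of the 403, no member among them.

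The log2 fold change of model over normal was 0.27 for miR-192-5p (SE 0.34, 95% interval -0.50 to 1.03, edgeR adjusted p = 0.826) and 0.17 for miR-194-5p (SE 0.30, interval -0.50 to 0.84, adjusted p = 0.887). For miR-192-3p it was 0.10 (SE 0.39, interval -0.77 to 0.97, adjusted p = 0.94). MiR-215 had the largest value of the 4, 0.84 (SE 0.60, interval -0.50 to 2.17, adjusted p = 0.669). The 4 values were positive with a median of 0.218, beside a median of -0.0072 over all miRNAs tested. The sign of miR-192-3p was negative with library totals in place of TMM factors (-0.061), while the other 3 were positive under each of the 5 scalings tried. None of the 4 had model libraries apart from normal libraries, a separation that 3.97% of the 403 showed in either direction.

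The signs depended on model libraries 2 and 3. Leaving out 1 library at a time, that of miR-192-3p reversed in 2 of 8 refits and those of the other members in 1 of 8. Without model library 3 the log2 fold changes of model over normal were -0.07 for miR-192-5p (SE 0.26), -0.07 for miR-194-5p (SE 0.26), -0.34 for miR-192-3p (SE 0.28) and -0.10 for miR-215 (SE 0.35). The edgeR adjusted p-values were then 0.743 to 0.949 over 408 miRNAs. Without model library 2 instead, the log2 fold changes were higher than with all libraries. They were 0.51 for miR-192-5p, 0.39 for miR-194-5p, 0.33 for miR-192-3p and 1.17 for miR-215. With both libraries left out, only miR-192-3p was negative. The width of the intervals sets what these libraries can show: for miR-192-5p the interval with all libraries runs from -0.50 to 1.03 on the log2 scale. In whole tissue, fewer cells of a type and less RNA per cell cannot be told apart.

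The comparison of XLHZ with model mucosa asks what the formula altered on top of the exposure. It uses the same 4 model libraries as the comparison above, so the values are given side by side only. Of 402 miRNAs tested 1 passed (0.249%), miR-320-3p, and 0 of 4 tested members did. At an unadjusted p under 0.05 edgeR called 17, none of them a member. The log2 fold change of XLHZ over model was -0.19 for miR-192-5p (SE 0.33, interval -0.93 to 0.55, edgeR adjusted p = 0.909) and -0.28 for miR-192-3p (SE 0.36, interval -1.10 to 0.53, adjusted p = 0.824). It was -0.04 for miR-194-5p (SE 0.28, interval -0.66 to 0.59, adjusted p = 0.971) and -0.24 for miR-215 (SE 0.60, interval -1.58 to 1.10, adjusted p = 0.935). The median of the 4 was -0.217, beside 0.0057 over all miRNAs tested. With library totals in place of TMM factors, miR-194-5p stood at 0.13 and miR-215 at 0.0064, both positive. XLHZ and model libraries overlapped for each of the 4, and were apart for 1.25% of the 401 miRNAs compared.

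Without model library 3 the log2 fold changes of XLHZ over model were positive: 0.16 for miR-192-5p (SE 0.25), 0.17 for miR-192-3p (SE 0.23) and 0.22 for miR-194-5p (SE 0.22). MiR-215 stood at 0.71 (SE 0.36, interval -0.12 to 1.53, edgeR adjusted p = 0.895 over 411 miRNAs). Without model library 2 instead, the values were negative. They were -0.42 for miR-192-5p, -0.49 for miR-192-3p, -0.24 for miR-194-5p and -0.55 for miR-215. With both libraries left out, only miR-215 was positive. No member passed in any of these fits.

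The comparison of XLHZ with normal mucosa does not involve the model libraries. Of 401 miRNAs tested 6 passed (1.5%), and 0 of 4 tested members did, while 35 had an unadjusted p under 0.05, miR-215 among them. MiR-215 was 1.51-fold higher in XLHZ by the fit, a log2 fold change of 0.59 (SE 0.21, interval 0.12 to 1.06). Its unadjusted p of 0.0199 was the 16th smallest of 401, and the edgeR adjusted p was 0.47, so the difference did not pass. XLHZ and normal libraries were apart for 5.74% of the 401 miRNAs in either direction, miR-215 included. That separation held with factors computed over 12 libraries but not with factors computed over the 8 libraries compared or with library totals, where XLHZ library 3 had 8.18 CPM and normal library 4 had 8.52 CPM.

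The log2 fold change of XLHZ over normal was 0.07 for miR-192-5p (SE 0.15, interval -0.28 to 0.41, edgeR adjusted p = 0.914), 0.12 for miR-194-5p (SE 0.15, interval -0.21 to 0.46, adjusted p = 0.784) and -0.19 for miR-192-3p (SE 0.20, interval -0.65 to 0.27, adjusted p = 0.741). The standard errors were smaller than in the comparisons with model libraries, so the intervals were narrower. DESeq2 and limma-trend also called 0 of the 12 member tests over the 3 comparisons, each with 1 at an unadjusted p under 0.05. Kept in a fit with no count filter, miR-194-3p had log2 fold changes of -0.26 for model over normal (edgeR adjusted p = 0.945), 0.52 for XLHZ over model (adjusted p = 0.9) and 0.16 for XLHZ over normal (adjusted p = 0.919).

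**Figure D3:**
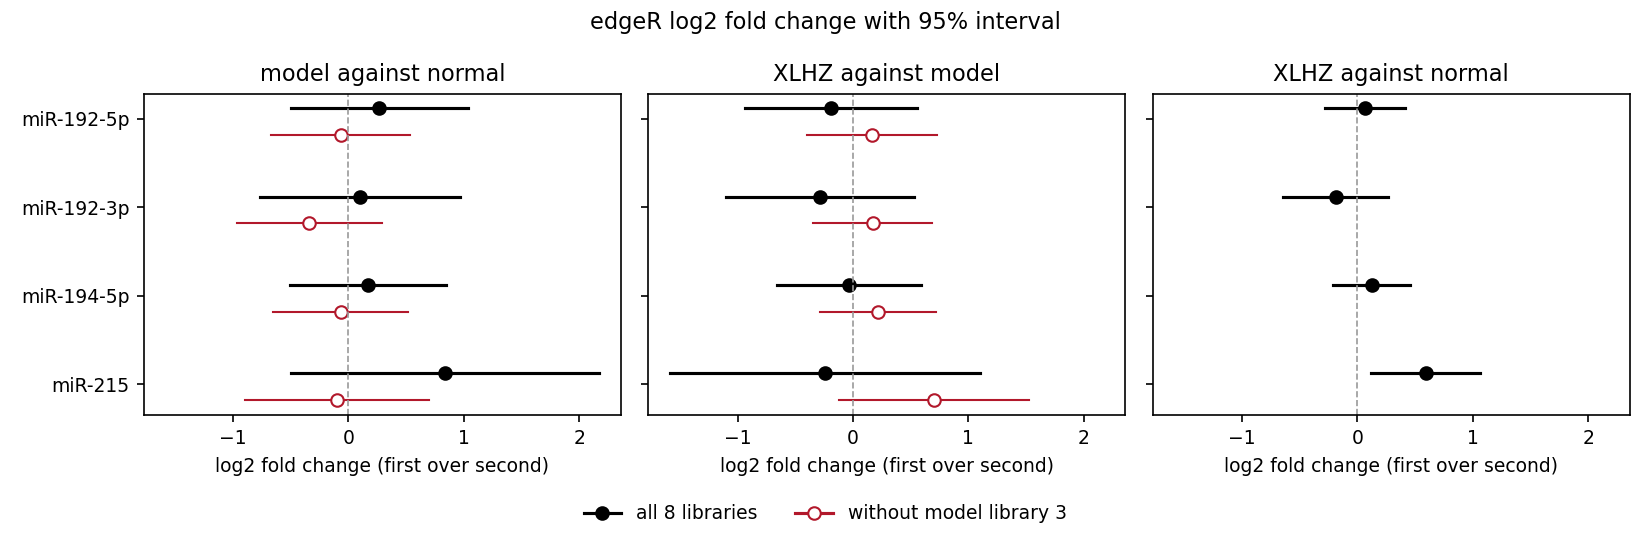
Log2 fold change with its 95% interval from edgeR for the 4 tested members in each comparison, with all libraries and, for comparisons with model mucosa, without model library 3. The intervals cross 0 except that of miR-215 in XLHZ over normal, 0.12 to 1.06, which did not pass adjustment over 401 miRNAs.

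Ratios between members within a library need no scaling factor, and they ask whether the arms, the clusters and the seed partners kept their proportions. In the tests of ratios, 5 ratios in 3 comparisons, no difference passed. Each was an exact two-sided permutation test over 70 splits of 8 libraries, whose smallest possible p is 0.0286. The adjusted p-values were 0.6 to 0.8 over the 15 tests. A lone ratio with its groups fully apart could not pass this adjustment, so the tests could hardly have shown a difference.

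The ratio of miR-192-5p to miR-194-5p was the tightest. It was 0.833, 0.904, 0.952 and 0.888 in XLHZ libraries 1 to 4, 0.949, 0.886, 1.10 and 0.942 in model libraries, and 0.965, 0.912, 0.931 and 0.929 in normal libraries. It spanned 1.32-fold over the 12 libraries while miR-192-5p itself went from 3253 to 11666 CPM. The means were 0.894 ± 0.0491 in XLHZ, 0.969 ± 0.092 in model and 0.934 ± 0.0219 in normal mucosa (SD, n = 4 each).

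The arms of the Mir192 hairpin stood at 82.8 to 124 counts of miR-192-5p for each of miR-192-3p. The XLHZ libraries had 103, 110, 117 and 94.4, the model libraries 99.7, 91.3, 91.1 and 124, and the normal libraries 96.6, 91.6, 82.8 and 88.3. The means were 106 ± 9.49 in XLHZ, 102 ± 15.6 in model and 89.8 ± 5.82 in normal mucosa (SD, n = 4 each). XLHZ was 1.18-fold above normal, the smallest p of the family (exact permutation p = 0.0571, adjusted 0.6), with XLHZ library 4 below normal library 1, so the groups overlapped.

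MiR-215, which shares the seed of miR-192-5p, was rare beside it. For each 1000 counts of miR-192-5p there were 2.33, 1.57, 1.12 and 2.03 counts of miR-215 in XLHZ libraries 1 to 4, 1.41, 0.893, 2.6 and 1.09 in model libraries, and 1.62, 0.963, 0.967 and 1.38 in normal libraries. The lowest and the highest value were those of model libraries 2 and 3, so miR-215 was farther apart between these libraries than miR-192-5p. The means were 1.76 ± 0.532 in XLHZ, 1.5 ± 0.766 in model and 1.23 ± 0.326 in normal mucosa (SD, n = 4 each), and XLHZ was 1.41-fold above normal (exact permutation p = 0.143, adjusted 0.6).

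**Figure D4:**
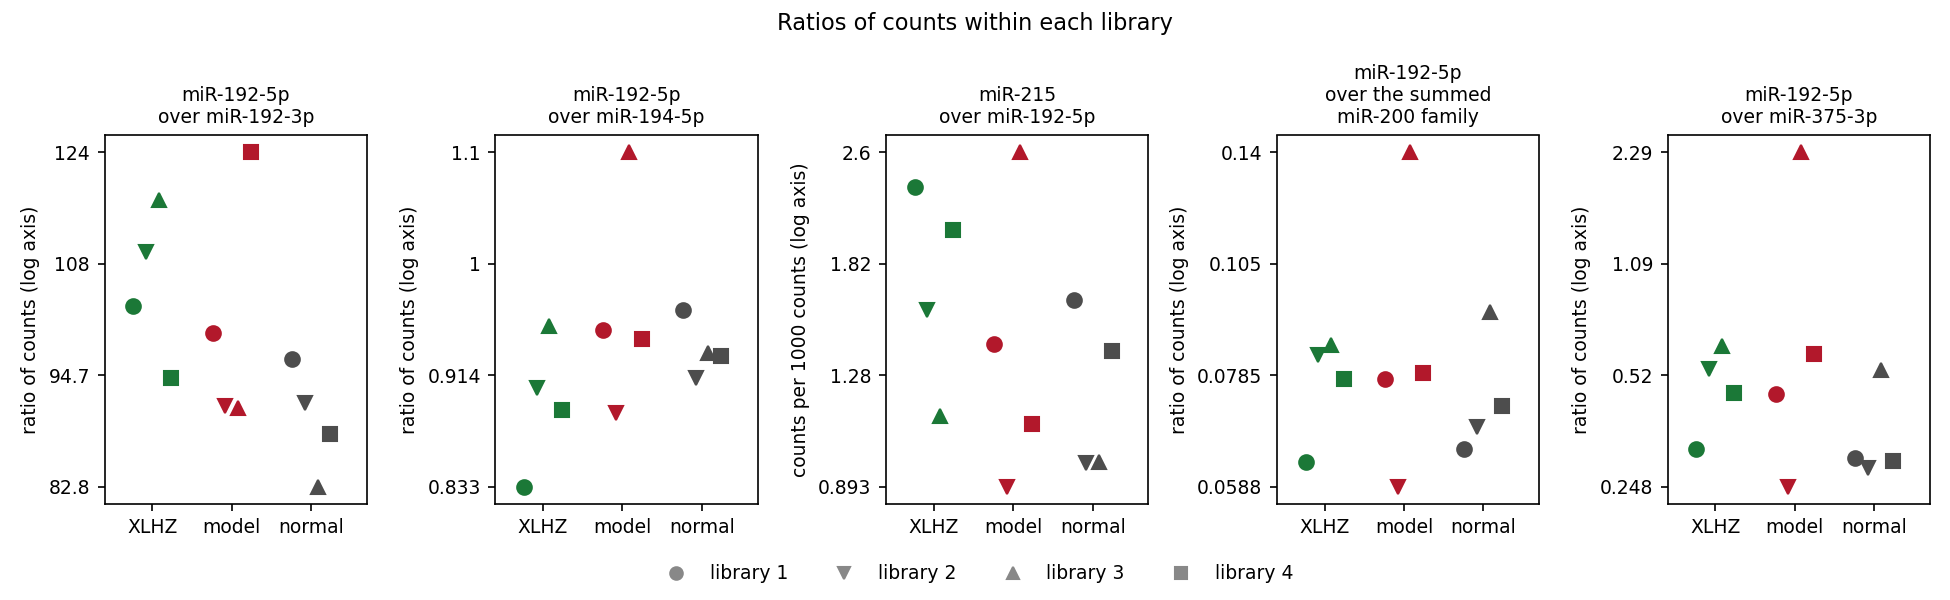
Ratios of counts within each library for 5 pairs (1 panel a pair, log axes with a range of their own, miR-215 as counts per 1000 of miR-192-5p), XLHZ, model and normal from left to right, with a symbol shape for each library number. The ratio of miR-192-5p to miR-194-5p stays between 0.833 and 1.10, and model library 3 stands apart at 2.29 in the ratio of miR-192-5p to miR-375-3p.

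Over the 12 libraries, miR-192-5p moved with the other members to different degrees. The relations below are between log2 CPM values that share library and scaling factors, 9 relations in all, with p-values from 100000 permutations adjusted by Benjamini-Hochberg. With miR-194-5p Pearson's r was 0.983 (adjusted permutation p = 9e-05, from the smallest p the permutations can give, 1e-05) and Spearman's rho 0.937 (adjusted permutation p = 0.00018). Without model libraries 2 and 3, the farthest from the median, r was 0.962. With miR-192-3p r was 0.927 (adjusted permutation p = 0.00036), rho was 0.804 (adjusted permutation p = 0.0108), and r without the 2 libraries was 0.718.

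The relation with miR-215 rested on the 2 outer libraries. Pearson's r was 0.794 (adjusted permutation p = 0.0198), rho was 0.392 (adjusted permutation p = 0.378), and r without model libraries 2 and 3 was -0.0578. That with miR-194-3p, at 0 to 12 counts, had r 0.511 (adjusted permutation p = 0.13), rho 0.147 (adjusted permutation p = 0.836), and r -0.5 without those libraries. With each group centred on its own mean, r was 0.991 for miR-194-5p, 0.953 for miR-192-3p and 0.809 for miR-215.

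**Figure D5:**
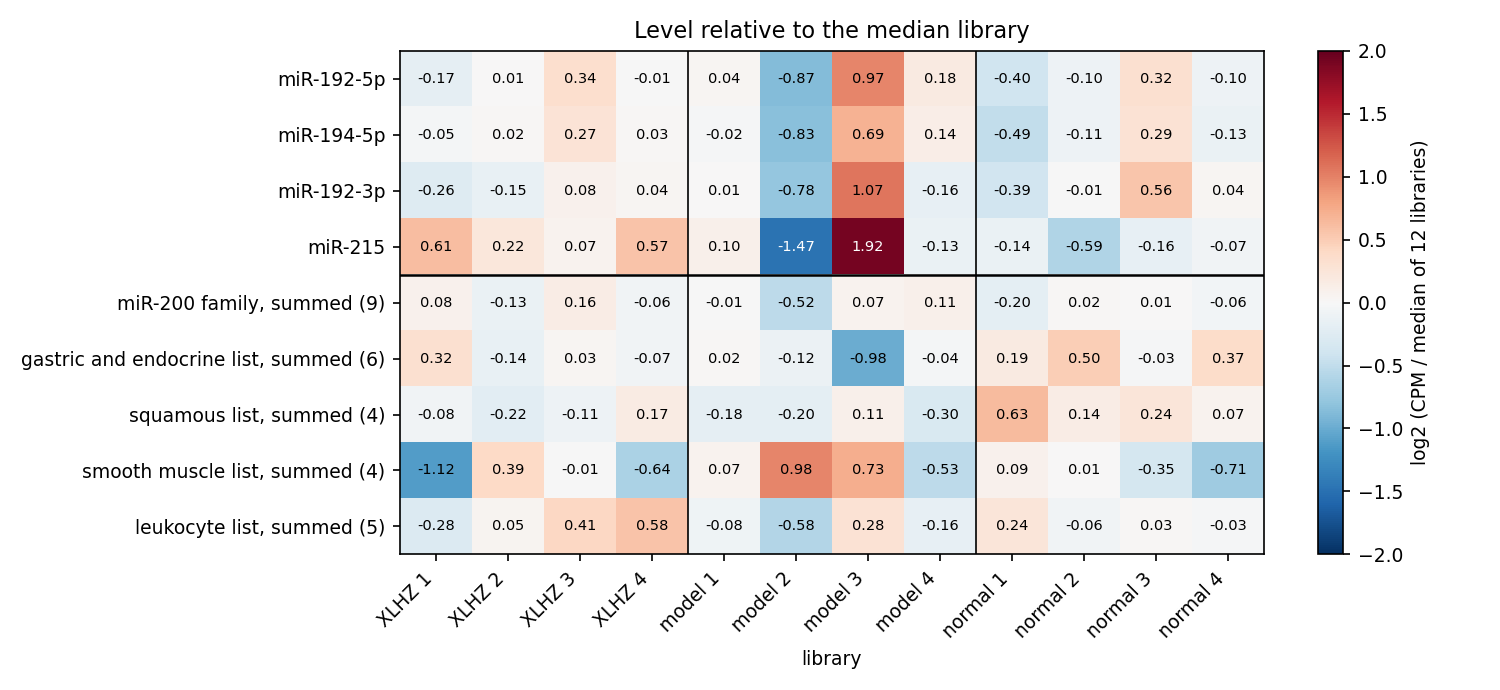
Log2 of each level over the median of the 12 libraries (colour and printed value) for 4 members and 5 summed marker lists, with libraries in columns grouped as XLHZ, model and normal. The members are at -0.78 to -1.47 in model library 2 and 0.695 to 1.92 in model library 3, where the gastric and endocrine list is at -0.98 and the smooth muscle list at 0.73.

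Among 147 miRNAs with a mean above 100 CPM, the patterns over 12 libraries most like that of miR-192-5p, by Pearson's r of log2 CPM, were miR-194-5p (0.983), miR-429 (0.928), miR-93-5p (0.926), miR-200b-3p (0.891) and miR-20a-5p (0.867). MiR-429 and miR-200b-3p are epithelial miRNAs of the miR-200 family, other arms of which did not share this pattern in model library 3 (values below). MiR-93-5p and miR-20a-5p belong to the miR-17 seed family, known for high levels in dividing cells. The median r of the 147 was 0.0103. The least like were miR-23b-3p (-0.823), miR-99a-5p (-0.803), miR-365-3p (-0.747), miR-205 (-0.736), a squamous epithelial miRNA, and miR-27b-3p (-0.733), which is clustered with miR-23b. The squamous list as a whole did not follow miR-205. It summed to 9145 CPM in model library 3, the highest of the model group, and miR-31a-5p was highest of the 12 there at 5597 CPM.

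Model library 3 was highest and model library 2 lowest of the 12 for each of the 5 most alike. The most and the least alike were chosen over these same libraries, so their extremes in model libraries 2 and 3 largely follow from the choice. MiR-429 had 20786 CPM in model library 3 and 11668 CPM in model library 2, with 12909 to 18442 CPM in the other 10. MiR-20a-5p had 2425 and 954 CPM in these libraries, with 1390 to 1903 CPM in the other 10. For the 5 least alike model library 3 was the lowest of the 12.

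Other cell type markers also moved in these libraries. The summed smooth muscle list stood at 412566 CPM in model library 2 and 347320 CPM in model library 3. It ran from 128350 to 223294 CPM in normal libraries and from 96356 to 274922 CPM in XLHZ libraries. Both outer libraries were thus high in muscle miRNAs while they differed in direction for the members. MiR-143-3p had an r of -0.0348 with miR-192-5p (rho 0, adjusted permutation p = 0.931 and 1) and miR-145-5p, also of smooth muscle, an r of -0.0285 (rho 0.028, adjusted permutation p = 0.931 and 1).

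The miRNAs listed for gastric and endocrine epithelium did not move together in model library 3. MiR-375-3p had 5100 CPM there, the lowest of the 12, against 11038 to 19685 CPM in the 10 libraries other than model 2 and 3. MiR-148a-3p, abundant in gastric epithelium, had 1360 CPM there, also the lowest, against 4697 to 7036 CPM in those 10. In model library 2 miR-148a-3p had 3920 CPM, also below those 10, while miR-375-3p had 13134.5 CPM, within their range. MiR-7a-5p had 4360 CPM in model library 3 and 4352.5 CPM in model library 2, both below the 4474 to 6939 CPM of those 10. MiR-204-5p was by contrast highest in model library 3 at 1129 CPM, with 627 CPM in model library 2 and 223 to 408 CPM in the other 10. The ratio of miR-192-5p to miR-375-3p was 0.320 to 0.633 in XLHZ libraries, 2.29 in model library 3, 0.248 to 0.601 in the other model libraries and 0.282 to 0.540 in normal libraries. Over the 12 libraries r between miR-192-5p and miR-375-3p was -0.671 (adjusted permutation p = 0.0594), rho was -0.608 (adjusted permutation p = 0.0886), and r without model libraries 2 and 3 was -0.545. With miR-148a-3p r was -0.532 (adjusted permutation p = 0.175), rho was -0.245 (adjusted permutation p = 0.666), and r without those libraries was -0.419. The part of tissue composition in the members' spread was not tested.

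With the epithelial miR-200 family as a whole, r was 0.768 (adjusted permutation p = 0.0183), rho was 0.608 (adjusted permutation p = 0.0886), and r without model libraries 2 and 3 was 0.654. Scaled to that family, miR-192-5p still differed between them: the ratio was 0.0628 to 0.0850 in XLHZ libraries, 0.140 in model library 3, 0.0588 in model library 2 and 0.0649 to 0.0926 in normal libraries. The group means of the ratio were 0.077 ± 0.00998 in XLHZ, 0.0888 ± 0.0351 in model and 0.0747 ± 0.0123 in normal mucosa (SD, n = 4 each), with exact permutation p from 0.629 to 0.8 in the 3 comparisons. The arms of the family did not move together in model library 3. MiR-429 and miR-200b-3p were highest of the 12 there, and miR-200a-3p ranked 5 with 26845 CPM. MiR-200c-3p and miR-141-3p were lowest of the 12 there, at 1064 and 6346.5 CPM.

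Liver, another source of these members, was checked by its defining miRNA. MiR-122-5p had 95.1 CPM in model library 3 and 2.23 CPM in model library 2, and 1.73 to 52.7 CPM in the other 10. MiR-192-5p was at least 123 times as abundant as miR-122-5p in each library. The 3 exocrine pancreas miRNAs summed to at most 13.6 CPM in any library. Their part in the members' levels was not tested.

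Of the marker lists for other cell types, only the erythroid one held a miRNA that passed. It was miR-144-5p, 1 of 4 tested in XLHZ over normal, where 6 of 401 miRNAs passed (1.5%). Its log2 fold change there was 1.89, while miR-144-3p stood at -0.18, the 1 negative value of the 4. The 9 miR-200 arms had median log2 fold changes of -0.03 for model over normal, 0.14 for XLHZ over model and 0.02 for XLHZ over normal. The 6 gastric and endocrine miRNAs had medians of -0.30, 0.25 and -0.10 in the same comparisons. In the squamous list, 4 of 4 had negative values for model over normal with a median of -0.59, and 0 passed. The 4 smooth muscle arms had a median of 0.62 for model over normal and -0.67 for XLHZ over model, and the 6 striated muscle miRNAs had 0.89 and -0.88, again with 0 passed. The 5 leukocyte miRNAs had medians of -0.35 and 0.26 and the 2 endothelial ones -0.09 and 0.09, with 0 passed. The 4 erythroid miRNAs had medians of 0.14, 0.69 and 0.74 for model over normal, XLHZ over model and XLHZ over normal. Liver miR-122-5p had 2.48, -0.93 and 1.54 in these comparisons and did not pass, nor did the 1 or 2 pancreas miRNAs tested.

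The list of posterior miRNAs, which are encoded in the Hox clusters and follow position along the body axis, had 5 entries that did not move together. MiR-10a-5p, by far the most abundant, averaged 6040 ± 1462 CPM in XLHZ, 8885 ± 3811 CPM in model and 6807 ± 781 CPM in normal mucosa (SD, n = 4 each). Its log2 fold change was 0.37 for model over normal (edgeR adjusted p = 0.662), -0.56 for XLHZ over model (adjusted p = 0.729) and -0.20 for XLHZ over normal (adjusted p = 0.73). MiR-196b-5p averaged 1.94 CPM in XLHZ, 1.41 CPM in model and 1.41 CPM in normal mucosa, and did not pass in any comparison. MiR-10b-5p averaged 0.185, 0.125 and 0.229 CPM in the same groups, with at most 4 counts in a library, and miR-196c-5p had at most 1 count. None of the list that entered the filtered fits passed.

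MiR-196a-5p, singled out from this list after its values were seen, had 27 counts over the 4 XLHZ libraries, 66 over the 4 model libraries and 4 over the 4 normal libraries, 1 in each normal library. It reached the minimum count in too few libraries to enter the filtered fits with normal mucosa, as the lowest model library also had only 8 counts. With no filter its log2 fold change was 4.06 for model over normal (edgeR adjusted p = 0.00666 over 639 miRNAs), -1.38 for XLHZ over model (adjusted p = 0.787) and 2.62 for XLHZ over normal (adjusted p = 0.398). Since miR-196a-5p was picked on these same values, its adjusted p-values make no allowance for that choice and are descriptive only. In the same unfiltered fits miR-196b-5p had 0.0087 for model over normal (edgeR adjusted p = 0.996), 0.54 for XLHZ over model (adjusted p = 0.802) and 0.47 for XLHZ over normal (adjusted p = 0.765). The ratio of summed rates of miR-196a-5p in model over normal was 16.6, with a counting interval of 6.19 to 62.8. That interval pools the 4 libraries of a group and leaves out the spread between them, so it is no test of the groups. MiR-196a-5p was highest in model library 2, at 2.68 CPM, where the 5 members were lowest, and had 1.25 CPM in model library 3.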

How the data were processed

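The authors deposited 2 tables of raw counts per mature miRNA (normal with model, model with XLHZ), with CPM beside them, per the file headers. The deposited CPM equalled count over column total within 5e-05 and served only as that check. RNA came from gastric mucosa (QIAseq miRNA kit, Illumina), per the labels' protocols. Bowtie and DESeq are named without version or role, per the submitters' processing notes. The build, and whether molecular identifiers were collapsed into the counts, was not given in the sources used here. A miRNA's capture efficiency is not corrected in either unit.

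The tables held 639 and 632 miRNAs, 622 of them in both. Model counts were identical for 621, and the other, miR-20b-3p, was left out where tables were joined. The 17 and 10 miRNAs in 1 table alone had at most 3 counts and were taken as 0 in the other. Libraries of a group differed beyond counting noise in 18 of 18 pairs, with a chi-square of at least 172 for each degree of freedom.

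EdgeR 4.0.16 in R 4.3.3 was run separately on the 8 libraries of each comparison (TMM, filterByExpr with a minimum count of 10, quasi-likelihood test, Benjamini-Hochberg). The procedure was also run on counts simulated from its own fitted spread, which checks the code and not how well it suits these libraries. The counts of XLHZ and normal libraries come from different tables. SEs and 95% intervals are from the edgeR fit to the deposited counts. Correlations and ratio tests used SciPy 1.17.1, with 0.5 CPM added before log2 for correlations and SDs. Alternatives were other scalings, filters and samples, DESeq2 1.42.0 and limma-trend 3.58.1. The members and lists were chosen with earlier results of these data known. Named were all members, up to 4 most abundant members of a list, and the 5 miRNAs most and least like miR-192-5p; miR-204-5p, miR-122-5p and miR-196a-5p come from the lists and were singled out after their values were seen.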

Additional observations from a re-analysis of the deposited data

Results flagged for a closer look

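The ratio of miR-192-5p to miR-375-3p counts was 0.540 in normal library 3, while the other normal libraries stood at 0.282 to 0.300. The gap to the next library was 0.93 of the group's range, above Dixon's 95% critical value for 4 samples. It was the only library so set apart among 30 groups of 4 values checked, of which chance sets apart about 1 in 20. Model library 3 lay farther from its group in this ratio, at 2.29 against 0.248 to 0.601, but the rule did not set it apart. MiR-375-3p was at 13773 CPM and miR-192-5p at 7435 CPM in normal library 3, the lowest and the highest of the normal group. Without normal library 3 the log2 difference of XLHZ over normal in this ratio was 0.70, the highest of its leave-one-out values, which ran from 0.34 to 0.70.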

How the results depend on the processing

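Of the 12 member fold changes, 0 passed under any alternative (smallest adjusted p 0.31). In 128 refits other than leave-one-out, 116 kept direction and 12 did not; over 96 leave-one-out refits, 84 did and 12 did not. Model over normal of miR-192-3p was -0.061 with library totals, -0.027 with limma-trend, -0.024 with the replicate block and -0.15 without model libraries 2 and 3. XLHZ over model of miR-194-5p was 0.13 with library totals, 0.019 with no filter, 0.064 with limma-trend and 0.061 with the replicate block, and of miR-215 it was 0.0064 with library totals, 0.24 with limma-trend, 0.27 with the replicate block and 0.37 without model libraries 2 and 3. The cause was not tested.

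Leaving out 1 library gave model over normal of -0.069 to 0.51 for miR-192-5p, -0.34 to 0.33 for miR-192-3p, -0.069 to 0.39 for miR-194-5p and -0.10 to 1.17 for miR-215, lowest without model library 3 and highest without model library 2. XLHZ over model was -0.42 to 0.16, -0.49 to 0.17, -0.24 to 0.22 and -0.55 to 0.71 in the same order, lowest without model library 2 and highest without model library 3. XLHZ over normal was -0.034 to 0.26, -0.32 to 0.046, 0.012 to 0.31 and 0.48 to 0.72, with adjusted p from 0.31 to 0.891 for miR-215 over all its alternatives.

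The log2 ratios did not pass under any alternative, but some alternatives could not have passed. The replicate block and the refit without model libraries 2 and 3 allow too few arrangements for a p under 0.05. The setting with summed CPM kept the p of the main test. Without 1 library, miR-192-5p over the miR-200 family was -0.054 to 0.36 for model over normal, -0.31 to 0.10 for XLHZ over model and -0.014 to 0.16 for XLHZ over normal. MiR-192-5p over miR-194-5p was -0.014 to 0.0901 and miR-215 over miR-192-5p -0.11 to 0.40 for model over normal, and miR-192-5p over miR-375-3p was -0.85 to 0.22 for XLHZ over model. XLHZ over model was -0.074 for the miR-192 arms without model libraries 2 and 3 and -0.054 for miR-215 over miR-192-5p from summed CPM.

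The 1 miRNA called for model over normal was 2 with upper-quartile factors, library totals, library sizes without the 5 most abundant miRNAs or at least 50 counts in 4 libraries, 3 with no filter, 4 in 1 fit of 12 libraries, 7 with DESeq2, and 1 to 4 leaving out a library. For XLHZ over model it was 0 without model libraries 2 and 3 and 0 to 1 leaving out a library. The 6 for XLHZ over normal were 2 in 1 fit of 12 libraries and 4 to 7 leaving out a library. Libraries with the same number correlated above 0.1 in 2 of 4 pairs of every comparison (-0.323 to 0.454 in all). Of the 8 libraries of a comparison, 3, 4 and 3 correlated best with their own number. With 4 pairs this does not settle whether the numbers pair the libraries. The replicate block changed no member's call. With 4 libraries a group and 0 to 12 counts, miR-194-3p allows no statement on its change.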
